A study of Mus musculus with 4 samples.

Results

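The alkaline phosphatase genes Alpi, Akp3 and Alpl were examined for open chromatin in mouse intestinal organoids before and after exposure to bone morphogenetic protein 2 (BMP2). The members were every peak whose midpoint lay in the body of one of these 3 genes or within 50 kb of it, on the mm10 build. At the threshold of 1e-05 they numbered 23 of 77200 peaks, with 8 of 35857 at 0 h and 15 of 41343 at 72 h. The assay, ATAC-seq, cuts accessible DNA with the Tn5 transposase, and a peak is a stretch where a caller found more cuts than in its surroundings.

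The organoids were grown from C57BL/6J crypts taken in the proximal small intestine, a source that the labels name as jejunum. At 0 h the medium held R-spondin, epidermal growth factor, CHIR99021 (an inhibitor of the kinase GSK3), the BMP antagonist Noggin and valproic acid, which blocks histone deacetylases, with no added BMP2. At 72 h they had spent that time with 100 ng/mL BMP2 and without CHIR99021, valproic acid and Noggin, while epidermal growth factor and R-spondin stayed in both media, so the effects of BMP2 and of the medium cannot be told apart. The 24 h and 48 h libraries of the series were not analysed here. Each time point was 1 library of 30000 cells, so no difference has a replicate check, no p-value is given, and intervals cover counting error only.

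Alkaline phosphatases are zinc enzymes that remove phosphate groups at alkaline pH and are held on the outer cell surface by a glycosylphosphatidylinositol (GPI) anchor. The intestinal forms sit on the brush border of villus enterocytes, where they take phosphate off bacterial lipopolysaccharide, and are a classic stain for enterocyte maturation. In the mouse, Alpi encodes the form found along much of the gut and Akp3 a form known mainly from the duodenum. The pair lies in a cluster with Alppl2, an alkaline phosphatase of embryonic and reproductive tissue, and the pseudogene Akp-ps1. Alpl encodes the tissue-nonspecific enzyme of bone, liver and kidney, which breaks down pyrophosphate during mineralisation and lies alone on another chromosome.

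The promoters are shown because the 3 genes differed in what lay over them: a peak at 72 h only at Alpi, a peak in both libraries at Alpl, and no peak at Akp3. Each sequence is the RefSeq sequence on GRCm38.p6 (the assembly that mm10 denotes) from 250 bases before the annotated start to 50 bases from it onward, on the gene's own strand. Capitals mark CAAAG on either strand (the core of HNF4 and TCF sites; CTTTG on the opposite strand) and the TATA box letters TATAAA on either strand (read as TTTATA on the opposite strand). The promoters are at chr1:87101557-87101856 on the minus strand (Alpi), chr1:87124704-87125003 on the plus strand (Akp3) and chr4:137796335-137796634 on the minus strand (Alpl).
Alpi: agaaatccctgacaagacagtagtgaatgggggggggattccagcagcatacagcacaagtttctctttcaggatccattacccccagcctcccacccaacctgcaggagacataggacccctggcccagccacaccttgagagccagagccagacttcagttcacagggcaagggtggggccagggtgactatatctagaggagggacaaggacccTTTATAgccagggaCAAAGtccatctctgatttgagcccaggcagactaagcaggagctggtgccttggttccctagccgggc
Akp3: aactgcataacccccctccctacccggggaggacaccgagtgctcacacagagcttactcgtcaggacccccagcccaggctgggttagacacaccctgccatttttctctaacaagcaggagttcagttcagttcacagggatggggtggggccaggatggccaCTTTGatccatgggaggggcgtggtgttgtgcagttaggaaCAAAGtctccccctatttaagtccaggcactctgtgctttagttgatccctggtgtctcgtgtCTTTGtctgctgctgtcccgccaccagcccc
Alpl: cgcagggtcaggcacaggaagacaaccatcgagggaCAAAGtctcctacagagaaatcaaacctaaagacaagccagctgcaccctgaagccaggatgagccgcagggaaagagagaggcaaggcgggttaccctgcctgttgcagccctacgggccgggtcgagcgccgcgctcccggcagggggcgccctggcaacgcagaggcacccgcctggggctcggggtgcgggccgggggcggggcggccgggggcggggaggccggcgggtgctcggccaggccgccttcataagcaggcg

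All 300 bases of the Alpi promoter lay inside 1 peak of the 72 h library, at chr1:87101267-87101867, and no 0 h peak touched them. The midpoint of that peak, which the deposited rows place at the summit, was 39 bases downstream of the Alpi start. All 300 bases of the Alpl promoter lay inside a peak in each library, at chr4:137796118-137796718 at 0 h and chr4:137796090-137796690 at 72 h. The summits were 34 bases and 6 bases upstream of the Alpl start, and the peaks overlapped by 573 of their 601 bases. The Akp3 promoter held no base of a peak in either library. A further annotated start of Alpl, inside the gene with its promoter at chr4:137766426-137766725, had none either. Of 32841 RefSeq promoters of this length, 34.9% were overlapped by peaks of both libraries, as at Alpl, and 1.88% by a 72 h peak only, as at Alpi. The most common state, at 60% of promoters, was no peak in either library, as at Akp3 and the further Alpl start.

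The promoters also differed in composition, which the choice of members did not use. The Alpl promoter was 70% G + C with 26 CG dinucleotides, the Alpi promoter 56.3% with 1 CG, and the Akp3 promoter 57% with 6. The median promoter with peaks in both libraries held 62.3% G + C (quartiles 56.7 to 68.7) and 23 CG. For promoters with a 72 h peak only the median was 52.3% (46.7 to 59.3) with 6 CG. Where neither library had a peak, as at Akp3, it was 48% (42.7 to 53.3) with 4 CG. The quartiles of the CG number were 16 to 30, 3 to 14 and 2 to 7 in these classes. Alpl and Akp3 thus had a G + C share above the quartile range of their class and a CG number within it, whereas Alpi had a G + C share within the range and a CG number below it.

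**Figure D1:**
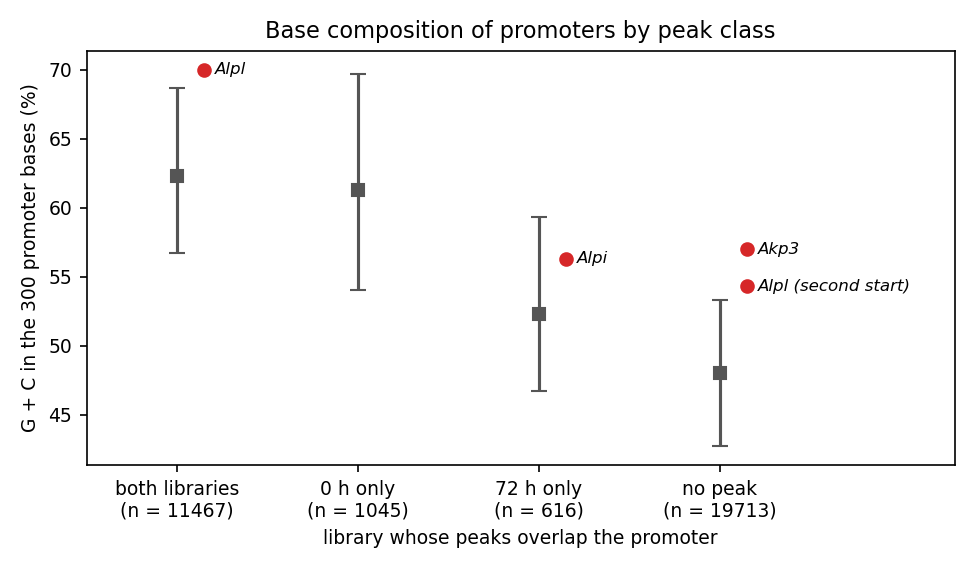
Share of G + C bases (vertical axis, percent) in the 300 promoter bases, for RefSeq promoters grouped by the library whose peaks overlap them (horizontal axis, number of promoters in brackets). Grey squares are medians with bars from the first to the third quartile, and red points are the alkaline phosphatase promoters; Alpl at 70% is above the quartile range of promoters with peaks in both libraries, and Alpi at 56.3% is within that of promoters with a 72 h peak only.

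The motif letters were searched on both strands. The Alpi promoter held 1 TATAAA match, on the opposite strand 33 to 28 bases before the start, and 1 CAAAG match 19 to 15 bases before it. The Akp3 promoter held 3 matches to CAAAG and the Alpl promoter 1, and both lacked TATAAA on either strand. The promoter of the further Alpl start held 2 matches to CAAAG and 1 to TATAAA, the latter 192 to 187 bases before that start. Only exact letters were counted, so variants of a site would be missed, and the other counts here are for the 3 promoters shown. Among all promoters, 53.9% held CAAAG and 13.6% held TATAAA. Kruppel-like factor sites have the core CACCC, which was found 3 times in Alpi, 2 in Akp3 and 4 in Alpl, and in 57.5% of all promoters. The SMAD core GTCTG was found 2 times in Alpi, 1 time in Akp3 and not in Alpl, and in 49.6% of all. The CDX letters TTTATG were in none of the 3 promoters and in 11.9% of all. The same held for the letters AGATAA of GATA factors, which 11.2% of all promoters had, and for the AP-1 site TGACTCA, which 5.2% had. Of all these matches, only a CTTTG and a GTCTG in Akp3 overlapped, by 1 base.

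The intestinal cluster went from 3 peaks at 0 h to 11 at 72 h. Of the 11, 10 overlapped no 0 h peak (90.9%, exact Clopper-Pearson 95% interval 58.7 to 99.8), against 30.6% of all 72 h peaks. Of the 3 peaks at 0 h, 2 overlapped no 72 h peak (66.7%, 9.43 to 99.2), against 20.7% of all 0 h peaks, an interval that includes the background. The windows of Alpi and Akp3 overlap, since the starts of the genes are 23.3 kb apart, and 9 of the 11 peaks at 72 h lay in both. The Alpi window held 2 peaks at 0 h and 10 at 72 h, with none in common. The Akp3 window held 2 and 10 peaks, with 1 site in common.

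**Figure D2:**
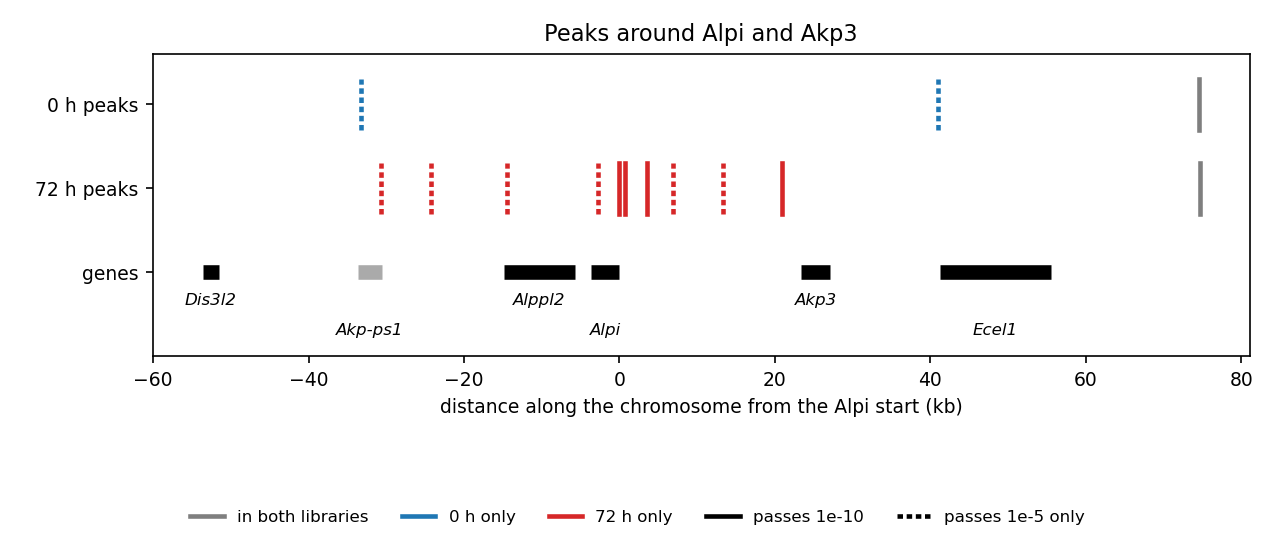
Peaks of the 0 h and 72 h libraries around Alpi and Akp3, by distance along the chromosome from the Alpi start (horizontal axis, kb; Akp3 to the right). Each vertical line is 1 peak at its midpoint, coloured by class and solid where it passes 1e-10; black blocks are protein-coding genes cut at the window's edge and the grey block is the pseudogene Akp-ps1, and the 10 red lines lie from the end of Akp-ps1 to just before Akp3, where no 0 h line stands.

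Alpi (gene ID 76768; chromosome 1, 87098002 to 87101606, minus strand) carried the densest group of these peaks. Besides the one across the start, a weaker 72 h-only peak lay in the gene body at 87098523 to 87099123, 2.78 kb downstream of the start. Upstream, 72 h-only peaks lay at 87102031 to 87102631 and 87104826 to 87105426, centred 725 bases and 3.52 kb from the start. The peak across the start and these upstream ones passed the stricter threshold of 1e-10. The body peak passed 1e-05 only. Exons and introns were not resolved, since the gene table gives only gene ends. The 0 h peak nearest to the Alpi start had its edge 32.99 kb away.

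Between Alpi and Akp3 the 72 h library had 3 more peaks with no 0 h counterpart. They were centred 6.87, 13.35 and 20.87 kb upstream of the Alpi start. Only the last of them, at 87122179 to 87122779, passed 1e-10. It was also the peak nearest to Akp3 (gene ID 11648; 87124954 to 87128728, plus strand), centred 2.48 kb upstream of the Akp3 start. No peak of either library overlapped the Akp3 body, and the nearest 0 h peak had its edge 17.39 kb from the Akp3 start. The 72 h numbering skips peak 986, which would lie between 87122780 and 87175962, an interval that includes Akp3; it was not analysed here. The 0 h numbering is complete across this window.

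On the other side of Alpi, the remaining 3 peaks found at 72 h only passed 1e-05 and not 1e-10. One, at 87086836 to 87087436, lay in the body of Alppl2 (87086690 to 87095934), 14.47 kb downstream of the Alpi start. This peak also overlapped a promoter of the long noncoding RNA gene Gm29371. The next, at 87077026 to 87077626, lay in no protein-coding gene. The last, at 87070651 to 87071251, lay across one end of Akp-ps1 (87068030 to 87071005) and also overlapped a promoter of the long noncoding RNA gene Gm41910. The 0 h library had its own weak peak at the opposite end of this pseudogene, at 87068016 to 87068616. The genes of the cluster are related in sequence, and how reads with several matches were treated is not given in the sources used here.

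Another 0 h-only peak of the cluster, at 87142341 to 87142941, lay across the end of Ecel1, a peptidase gene of neurons, and passed 1e-05 only. This peak also overlapped a promoter of the long noncoding RNA gene Gm51638. The single site found in both libraries was 87175871 to 87176471 at 0 h and 87175963 to 87176563 at 72 h, beyond Ecel1 and 6.93 kb outside Prss56 by the 0 h peak. It passed 1e-10 at both times and overlapped by 509 bases. Dis3l2, an RNA exonuclease gene whose end falls in the window, had no peak in the part of it that lies there. The 72 h-only peaks thus ran from 87070651 to 87122779, a span of 52.1 kb, and all 3 peaks of the 0 h library lay outside it.

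At the stricter threshold the cluster had 1 peak at 0 h and 5 at 72 h. Of the 5, 4 overlapped no 0 h peak even at 1e-05, against 18.1% of all 72 h peaks at 1e-10. The same 4 are in the authors' list of regions enriched at 72 h, which adds nothing to this: all 4534 regions of that list are among the 4535 peaks at 1e-10 that overlap no 0 h peak. The 0 h-enriched list likewise shares 1274 of its 1276 regions with the 1275 such peaks at 0 h. The 1 strict peak at 0 h, beyond Ecel1, was shared, and 6.40% of all 0 h peaks at 1e-10 were not. Within the 72 h-only peaks of the cluster, 4 of 10 passed 1e-10, close to the 35.8% of all 72 h-only peaks that did.

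Alpl (gene ID 11647; chromosome 4, 137741731 to 137796384, minus strand) had most of its peaks, but not all, in both libraries. Its window held 5 peaks at 0 h and 4 at 72 h. Of the 72 h peaks 1 was found at 72 h only (25%, 0.631 to 80.6, against 30.6% of all), and of the 0 h peaks 1 was at 0 h only (20%, 0.505 to 71.6, against 20.7% of all). Both shares are near their background. At 1e-10 it held 1 peak at 0 h and 2 at 72 h. When strict peaks were compared with strict peaks alone, 1 of the 2 at Alpl (50%, 1.26 to 98.7) was at 72 h only. At the cluster 4 of the 5 were (80%, 28.4 to 99.5), against 32.4% of all, which both intervals include. The strict 0 h peak of each locus was shared, against 17.2% of all at 0 h only.

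**Figure D3:**
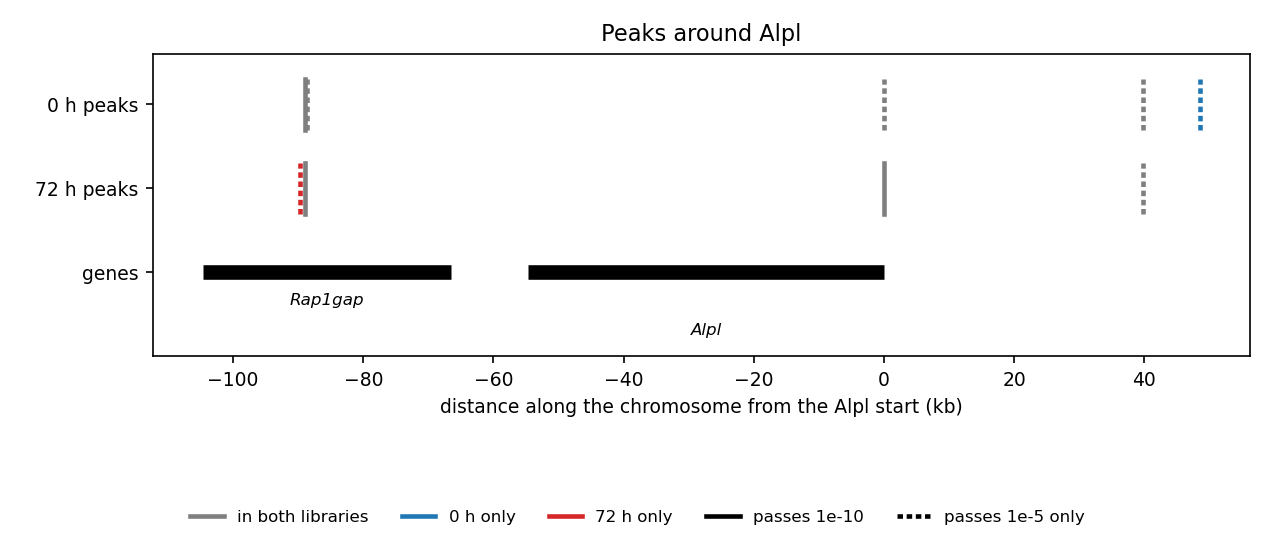
Peaks of the 0 h and 72 h libraries around Alpl, by distance along the chromosome from the Alpl start (horizontal axis, kb; the gene extends to the left). Lines and colours as in the map of Alpi and Akp3; the only peak touching Alpl is the grey one at its start, solid at 72 h and dotted at 0 h, and the blue and red lines are far from it.

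The peak across the Alpl start was the only one to touch the gene, and no peak in either library had its midpoint in the 54.7 kb body. It passed 1e-10 at 72 h and only 1e-05 at 0 h. Such a step was seen at 12.5% of the 72 h peaks shared with 0 h, and the opposite step at 14.7%, so it is not unusual and is no measured rise in height. The rows hold no score or read count that could be compared.

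The other Alpl sites lay toward its neighbours. A site inside Rap1gap, a GTPase regulator gene, passed 1e-10 in both libraries and overlapped an annotated promoter of Rap1gap. It lay at 137707194 to 137707794 at 0 h and at 137707201 to 137707801 at 72 h. A second 0 h row, 137707409 to 137708009, overlapped the same 72 h peak and also a Rap1gap promoter. The 72 h-only peak, at 137706416 to 137707016, was in Rap1gap as well, 89.67 kb downstream of the Alpl start, and passed 1e-05 only. This peak overlapped a promoter of the long noncoding RNA gene Rap1gapos. Upstream, a weak site at 137835829 to 137836429 (0 h) was found at both times, 39.74 kb from the start. The 0 h-only peak, at 137844604 to 137845204, was 48.52 kb from the start and passed 1e-05 only. The skipped 0 h number 24806 would lie between 137665145 and 137707193, so partly inside this window, and was not analysed here.

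**Figure D4:**
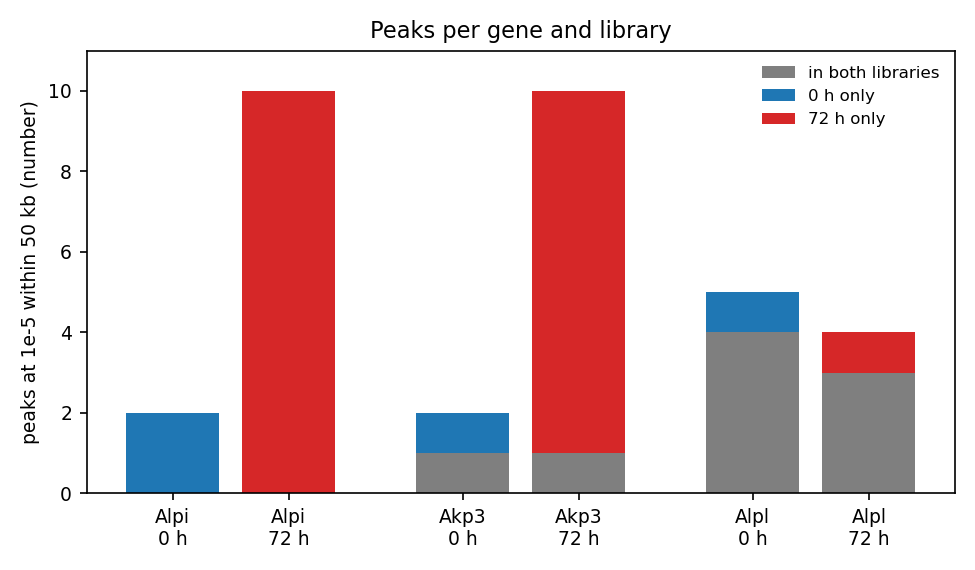
Number of 1e-05 peaks within 50 kb of each gene (vertical axis) in the 0 h and 72 h libraries, split into peaks with and without an overlapping peak in the other library. Alpi and Akp3 each went from 2 peaks to 10, nearly all red, whereas Alpl had 5 and 4, mostly grey; the Alpi and Akp3 bars at 72 h share 9 peaks.

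Set side by side, the share of 72 h peaks found at 72 h only was 10 of 11 at the cluster and 1 of 4 at Alpl. The exact conditional odds ratio was 20.0, with a 95% interval from 0.871 to 1723 that includes 1, so at these numbers the loci could not be told apart by this share. For the 0 h peaks the counts were 2 of 3 and 1 of 5, with an odds ratio of 5.78 (0.158 to 587). Peaks of 1 locus are not independent, so these intervals are too narrow. Per 100 kb of window, the cluster had 7.65 peaks at 72 h only and Alpl 0.647. The windows span 130.7 kb and 154.7 kb.

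The number of 72 h-only peaks around Alpi was rare among all genes. Of 21887 protein-coding genes, 0.128% (28 genes) had 10 or more 72 h-only peaks within 50 kb, and 0.283% (62 genes) had at least the 9 of Akp3. Alpl, with 1, shared its count or more with 53.7% of genes. The median gene had 1. Neighbouring genes count the same peaks, and Alppl2, with 10, is among the 28 genes for this reason. Within 5 kb of the gene, Alpi had 4 peaks at 72 h only, a number reached by 1.55% of genes. Akp3 had 1 there, a number reached by 24.1%, and Alpl had none. The rarity of Akp3 in the wide window thus came from peaks that its window shares with Alpi.

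**Figure D5:**
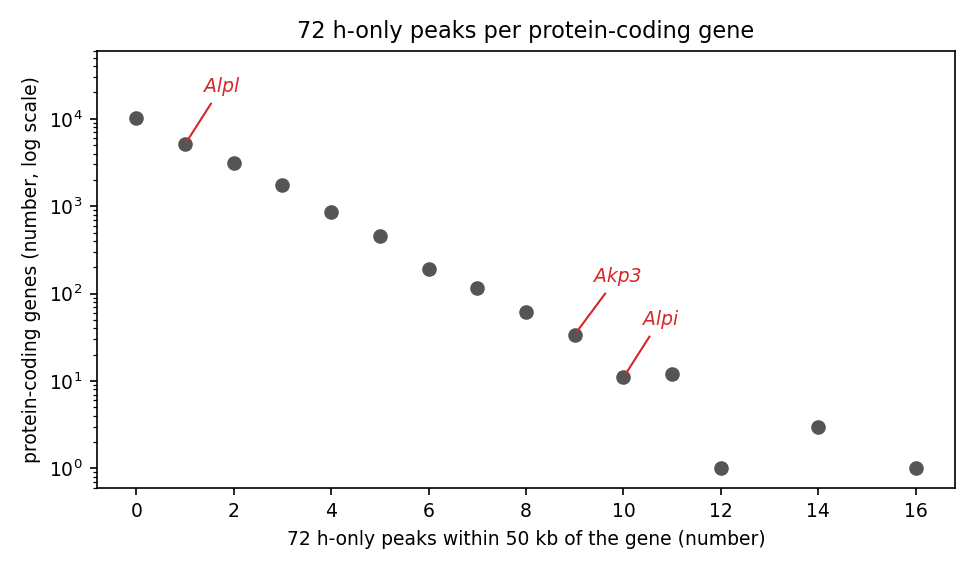
Number of protein-coding genes (vertical axis, log scale) by the number of 72 h-only peaks within 50 kb of the gene (horizontal axis). Each point is 1 number of peaks; Alpl is among the 5087 genes with 1, Akp3 among the 34 with 9 and Alpi among the 11 with 10, and numbers that no gene had are left blank.

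Genes with a pattern most like that of Alpi were sought as those with no 0 h peak within 5 kb, ordered by their number of 72 h-only peaks at 1e-10. Of 7167 genes without a 0 h peak, 706 had a 72 h peak, and 7, Alpi included, had at least 3 that passed 1e-10. The first was 1700057G04Rik with 4 peaks at 1e-10 among 5 at 1e-05. Tinag followed with 3 among 4, the same numbers as Alpi. Acot12 (an acyl-CoA thioesterase), Bcl2l15, Kcnt2 (a potassium channel) and Nat8 had 3 among 3, and C8a (a complement component) and Ube2l3 had 2 among 6. Alpi spans 3.6 kb and the others from 6.47 kb (Nat8) to 368 kb (Kcnt2), so that Alpi had the shortest window of the 9 genes. The pattern of Alpl, 1 shared site within 5 kb and nothing else, was found in 3110 other genes. The first of them in alphabetical order were 0610009B22Rik, 0610010F05Rik, 1110008P14Rik, 1110032A03Rik and 1190007I07Rik. In 2446 of the 3110 the site passed 1e-10 at both times, and in 196 it did so at 72 h only, as at Alpl.

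Genes whose products have related roles were counted within 5 kb. There 24.1% of all protein-coding genes, or 34.2% of the 15426 with any peak, had a 72 h-only peak, and 18.2% or 25.8% a 0 h-only one. Among 13 genes of other GPI-anchored surface proteins, 6 had a 72 h-only peak (46.2%, 19.2 to 74.9) and 5 a 0 h-only peak (38.5%, 13.9 to 68.4). Treh, the brush border trehalase, had 1 peak at 72 h only and 2 at 0 h only, and Lypd8, a colonic epithelial surface protein, had 1 of each. Cd59a, a complement inhibitor, also had 1 of each, and Mdga1 had 1 and 3. Dpep1 and Gpc4, the others with a 72 h-only peak, had 1 each and none at 0 h only. The 5 genes of the transamidase that attaches the anchor (Pigk, Gpaa1, Pigs, Pigt and Pigu) had no 72 h-only peak, with an upper limit of 52.2%, and Gpaa1 had a 0 h-only one.

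Of 13 genes for surface or secreted nucleotide and phosphate ester hydrolases and acid phosphatases, 7 had a 72 h-only peak (53.8%, 25.1 to 80.8) and 3 a 0 h-only one (23.1%, 5.04 to 53.8). Enpp1, which makes the pyrophosphate that the Alpl enzyme breaks down, had 2 of each. Entpd1, an ATP and ADP hydrolase, had 1 of each. Acpp, an acid phosphatase, and Enpp2, which makes lysophosphatidic acid, had 1 at 72 h only. Of 12 genes for mineralisation and phosphate transport, 8 had a 72 h-only peak (66.7%, 34.9 to 90.1) and 2 a 0 h-only one (16.7%, 2.09 to 48.4). They were led by Ank, the pyrophosphate exporter, with 4, followed by Enpp1, Phospho1 (a phosphatase of mineralising cells) and Slc34a2 (a sodium-phosphate cotransporter) with 2 each. The lower limit of 34.9% is above the 24.1% of all genes and just above the 34.2% of genes with any peak. Since the list was chosen with earlier results of these data known, this does not set it apart. Enpp1 counts in both lists. The window grows with gene length, which was not corrected for.

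All 17 genes of transcription factors reported to act on intestinal alkaline phosphatase promoters had peaks at both times. Of these, 11 had a 72 h-only peak (64.7%, 38.3 to 85.8) and 5 a 0 h-only one (29.4%, 10.3 to 56.0). The lower limit of 38.3% is above both background shares. This list too was chosen with earlier results of these data known, and gene length was not corrected for, so it is not set apart by this. Hnf4g and Ppara, nuclear receptors of enterocytes, had 6 at 72 h only and none at 0 h only. Thrb, a thyroid hormone receptor, had 5 and none, and Rxra, the partner of many nuclear receptors, 3 and 1. Cdx2, Klf5, Thra and Zbtb7a had none of either class. The lists' medians were 0 or 1 peak at 72 h only per gene, and the median of all genes was 0.

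Markers were read within 5 kb to check the labelled tissue. Of all protein-coding genes, 67.3% had a 0 h peak and 66.9% a 72 h peak at this distance. All 5 epithelial and all 5 intestinal identity markers, among them Epcam, Cdh1, Cdx2 and Vil1, had peaks at both times. Of 7 enterocyte markers, Alpi included, 3 had a peak at 0 h and 7 at 72 h; Fabp1, Lct and Sis were like Alpi in having none at 0 h. All 7 had a 72 h-only peak and 2 a 0 h-only one, against the 24.1% and 18.2% of all genes given above. All 4 stem cell markers had peaks at both times, 3 of them a 0 h-only peak (75%, 19.4 to 99.4) and 1 a 72 h-only one. That interval lies above the 18.2% of all genes but includes the 25.8% of genes with any peak. Lgr5, a receptor for R-spondin, had 7 peaks at 0 h and 3 at 72 h, and Ascl2, a transcription factor of stem cells, 4 and 1. Smoc2 had 4 and 3, with 2 at 0 h only and 1 at 72 h only, and Olfm4 had 1 shared peak. All 5 epithelial markers also had a 0 h-only peak, 1 each, and 1 of them, Cdh1, a 72 h-only one. Of the intestinal identity markers 4 had a 72 h-only peak and none a 0 h-only one. Goblet cell markers had peaks at 2 of 5 and 4 of 5, of which 4 had a 72 h-only peak and none a 0 h-only one, and Paneth cell markers had peaks at 1 of 4 at both times, Lyz1, with 1 of each class. Of 6 markers of Alpl-expressing mesenchyme, 3 had a peak at 0 h and 4 at 72 h, with none at Col3a1 and Sp7. Runx2 had 7 peaks at 0 h and 3 at 72 h, Col1a1 3 and 2, Pdgfra 2 and 1, and Col1a2 0 and 1. In this list 1 gene had a 72 h-only peak and 1 a 0 h-only one. Of 5 immune markers, 2 had a peak at 0 h and 3 at 72 h, with none at Cd3e and Ptprc. Cd68 had 1 and 2 peaks, Itgam 1 and 1, and Csf1r 0 and 1. Among them 1 gene, Csf1r, had a 72 h-only peak and none a 0 h-only one. In bulk libraries a change in the share of cells of a type and a change within each cell cannot be told apart, and the part of cell makeup in these results was not tested.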

How the data were processed

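ATAC-seq peak lists of 2 libraries, 1 at 0 h and 1 at 72 h, were used. Per the submitters' processing notes, the tools were bedtools 2.26.0, Bowtie2 2.4.1, cutadapt 1.9.1, deepTools 3.5.4, MACS2 2.2.7.1, Picard 2.18.27 and SAMtools 1.3.1, with the build mm10; their settings, any Tn5 shift and duplicate handling were not given in the sources used here. Deposited by the authors were peaks per library at p-value thresholds of 1e-05 and 1e-10, nearly all spanning 601 bp, with positions and no score, height or count, so depth is unknown. They also deposited lists of regions enriched in each library. The strict lists hold 19910 peaks at 0 h and 25040 at 72 h. The numbering of the 1e-05 lists, which follows position, skips 1427 numbers at 0 h and 740 at 72 h.

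A peak was called shared if at least 1 bp of it overlapped a 1e-05 peak of the other library. Genes, strands and promoters came from RefSeq tables of GRCm38.p6 (chromosomes 1 to 19, X and Y; 1-based positions). Overlap classes were checked on 3800 simulated peaks, all classed as made. The simulated sites lay far apart, so the check did not cover peaks close to each other, as in Rap1gap. Shares carry exact Clopper-Pearson 95% intervals. The members and gene lists were chosen with earlier results of these data known. Named genes were the members, their neighbours, the genes most like Alpi and Alpl, and up to 4 per list. Those of a list were ordered by number of 72 h-only peaks, then of 0 h-only peaks, then by alphabet. Lgr5, Ascl2, Cdh1, Lyz1, Dpep1 and Gpc4 were chosen after their values were seen. So were the list and marker genes named as having no peak or no peak at 1 time. For the stem cell, mesenchyme and immune markers, every member of the list is named. Alternatives changed the window, threshold, overlap, placement, gene assignment and merging. Python 3.11.15, numpy 2.4.6, SciPy 1.17.1 and matplotlib 3.10.9 were used.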

Additional observations from a re-analysis of the deposited data

How the results depend on the processing

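No paired analysis was possible because each time point is 1 library and no result comes from a test. With 9 alternatives for each of 11 results, 95 values could be given, of which 58 stayed within 1.5 times the count or within the interval as reported and 37 did not. The intervals are wide, so an odds ratio of 2.39 in place of 20 and an Alpl share of 50% in place of 25% counted as staying. Overlap by 50% of the peak, any overlap with the window and merging changed no value, so the 58 are no measure of stability. The 10 peaks found at 72 h only at the intestinal cluster became 4 with 1e-10 lists only, and were 7 to 10 under the other alternatives. With a window of 10 kb, the cluster had 0 peaks at 0 h only and 0 shared at 72 h, so 100% of its 72 h peaks were at 72 h only; Alpl had 0 peaks in the 72 h library alone (0%), 0 in the 0 h library alone and 1 shared. The 20 kb window gave the same values, except 1 peak at 0 h only at the cluster. The nearest protein-coding gene gave the values of the 10 kb window. With 100 kb, the cluster had 4 shared peaks at 72 h, and Alpl had 4 peaks in the 72 h library alone and 2 in the 0 h library alone; the odds ratio was 2.39 (0.289 to 21.5). With 1e-10 lists only, no peak was at 0 h only at either locus (0 and 0), Alpl had 1 shared peak, and the odds ratio was 3.16 (0.0256 to 391). When a peak within 1 kb counted as shared, Alpl had 0 peaks at 72 h only (0%). With windows of 10 and 20 kb, the nearest gene and the 1 kb rule, the odds ratio had no finite value because no Alpl peak was at 72 h only; its lower limits were 0.179, 0.205, 0.179 and 2.25. The last is above 1 through the reclassing of 1 Alpl peak, and since peaks of 1 locus are not independent it does not set the loci apart. For single genes, Alpi had 5 peaks at 72 h only within 10 kb, and Akp3 had 2. Depth is unknown, so a peak absent from one library may lie just under its threshold.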

Other observations

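The 72 h-only peaks of the cluster followed each other with no 0 h peak and no shared peak between them, which was noticed in the data and then counted across the genome. A run was a series of peaks of 1 library only, with no peak of the other library between them and midpoints at most 50 kb apart. There were 8920 such runs at 72 h, of which 72.1% held 1 peak and 0.0336% (3 runs) held 10 or more, the run at Alpi among them. The others were a run of 12 peaks over 171 kb of chromosome 17 across 4930488N24Rik, Gm7168, Gm7356 and Gm7358, and a run of 11 over 183 kb of chromosome 2 at Kif16b, a kinesin gene. The run at Alpi packed 10 peaks into 52.1 kb. Runs of 9 peaks lay at Ugt2a3 and Ugt2b38 (glucuronosyltransferases) and at Ces2b (a carboxylesterase). At 0 h only, 6014 runs were found and the longest held 8 peaks. When a gap of 20 kb ended a run, the run at Alpi was the only 1 of 10 or more peaks, and with a gap of 100 kb there were 4. These definitions and names were chosen after seeing the data.

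The promoters of the 3 genes share a run of 8 bases on their own strands, ACAAAGTC, which includes the CAAAG core. It begins 20 bases before the start in Alpi, 45 in Akp3 and 215 in Alpl, and was found on either strand in 1.14% (373) of the 32841 promoters. Alpi and Alpl share 12 bases around it, agggacaaagtc. The longest run shared by Alpi and Akp3 is 14 bases, ttcagttcacaggg, 94 and 122 bases before their starts. These runs were picked after reading the sequences, are a description, and say nothing of what binds there.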
